A study of Capra hircus with 6 samples.

Results

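The transcripts described here are those of the HOX genes and of their MEIS and PBX partner genes in secondary hair follicle dermal papilla cells (SHF-DPCs) treated with all-trans retinoic acid (ATRA). The members were all genes of the deposited count table whose symbol names a gene of the HOXA, HOXB, HOXC, or HOXD cluster or of the MEIS or PBX family, and 40 of the 15944 genes listed qualified. They were 33 HOX genes (11 HOXA, 7 HOXB, 8 HOXC, and 7 HOXD), 3 MEIS genes, and 4 PBX genes. The rule reads gene symbols and no measured value. RNA-seq was available for 3 control libraries and 3 ATRA libraries. All were wild type primary cultures from skin of the right scapular region of adult Albas cashmere goats (3 years old). The ATRA-treated group received ATRA at 100 µM for 24 h, and the control group received no ATRA. The study's methods describe culture medium for the control and name no solvent for it. Cells of 3 animals were treated, and neither the labels nor the methods say which control and ATRA libraries share an animal, so the libraries were compared as independent samples. The labels give all 6 libraries a single batch.

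HOX proteins are transcription factors that bind DNA through a homeodomain and give cells their position along the body axis. Their genes lie in clusters in which the gene order follows the order of expression along that axis: low paralog numbers, at the 3′ end, are anterior, and high numbers, at the 5′ end, are posterior. PBX and MEIS proteins are homeodomain proteins of the TALE class that bind DNA together with HOX proteins and sharpen their choice of target sites. In embryos, retinoic acid switches on the 3′ HOX genes first, through receptor binding sites beside them. Adult skin fibroblasts keep a HOX expression pattern that reflects the body site they came from, and HOXC13 is required for hair shaft formation.

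Library totals ranged from 35532339 to 38012771 counts. Levels are given as normalized CPM, a gene's count relative to its library's total after scaling by edgeR's TMM method, and a single count was worth 0.0227 to 0.0322 CPM. No library was a copy of another: pairs of replicates differed beyond sampling noise, with a chi-square of 5.01 to 18.4 for each degree of freedom. ATRA replicate 2 stood apart, at 18.4 and 17.3 against the other ATRA libraries, which differed by 5.01. Of 6 direct retinoid responders, 4 were listed, and CYP26A1 and CYP26B1 were not. The genes of the reductase DHRS3, the receptor RARB, and the transglutaminase TGM2 rose with ATRA. Their log2 fold change (log2FC) was 7.02, 5.29, and 4.44, and STRA6 had 0.68 (adjusted p = 0.262). Of these, DHRS3 alone passed the filter on low counts in both groups, and RARB, TGM2, and STRA6 passed through the ATRA libraries alone. Of all genes, 12588 passed a filter on low counts. They were tested with the two-sided quasi-likelihood method of edgeR, and p-values were adjusted over all of them by Benjamini-Hochberg. The sources name separate animals but not the pairs, and p-values measure the spread between these 3 cultures per group. RNA of whole cultures was measured, so a change in cell numbers and a change in RNA per cell cannot be told apart.

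Of the 40 members, 34 passed the filter. At an adjusted p under 0.05, 21 of them rose with ATRA, 8 fell, and 5 did not pass. Over all genes tested, 40.9% rose and 38.7% fell by the same rule, so the members counted as higher stood at a larger share and those counted as lower at a smaller share than the background, and the difference between the shares was not tested. Under the thresholds named in the study's methods (log2FC beyond 1 in size, unadjusted p below 0.05), 13 members were higher and 2 lower, against 13.7% and 17.3% of all genes tested. The control and ATRA libraries did not overlap for 33 of the 34 members, against 80.1% of all genes tested, and PBX2 was the exception. HOXA2, HOXA13, and PBX4 passed the filter through the ATRA libraries alone, a choice that favours a rise. Without them, 18 of 31 members rose and 8 fell, 10 were higher and 2 lower by the fold threshold, and the median log2FC was 0.44. Without ATRA replicate 2, 21 members rose and 9 fell. The median log2FC of all tested members was 0.52, against 0.04 over all genes tested. Scaling matters for this split, since dividing by library size only moved the median of all genes to 0.52 and the members' counts to 25 higher and 3 lower, where 62.9% of all genes tested were higher and 22.7% lower.

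**Figure D1:**
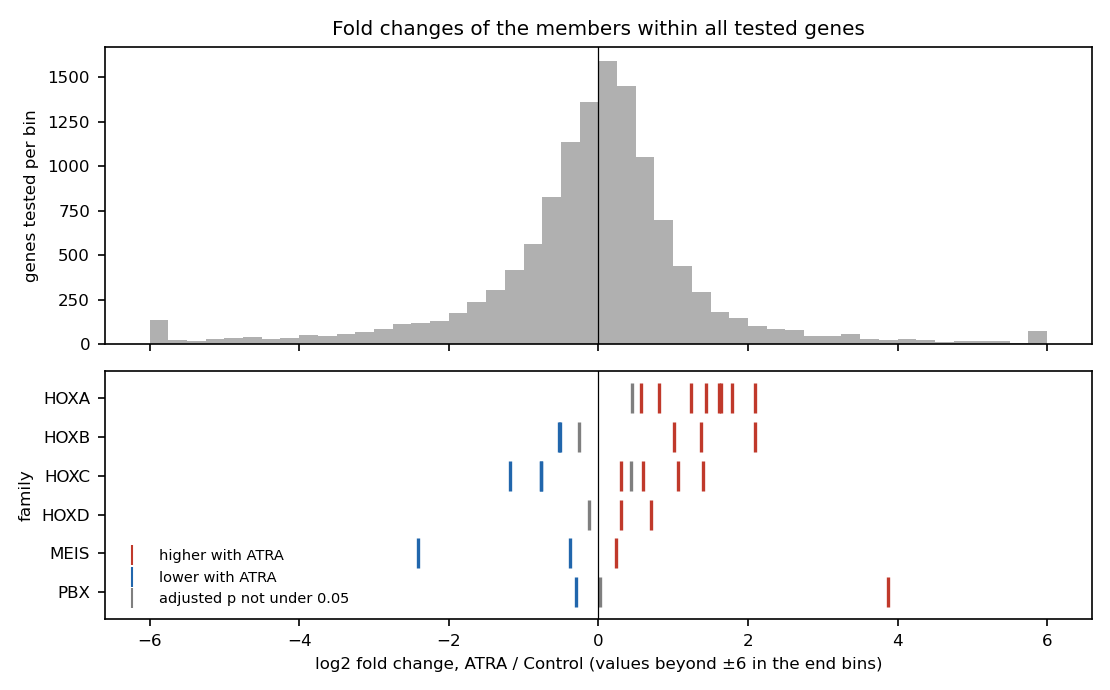
The upper panel counts all 12588 genes tested by their log2 fold change of ATRA over control, and the lower panel marks the 32 tested members described by name, by family, coloured by their call at an adjusted p under 0.05. The HOXA genes drawn lie between 0.46 and 2.09, while HOXB and HOXC genes lie on both sides of 0, MEIS1 lies at -2.41, and PBX4 at 3.88.

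By position, the anterior HOX genes are those of paralog groups 1 to 3. All 6 anterior genes tested rose, with a median log2FC of 1.77 and HOXA2 among them passed the filter through the ATRA libraries alone. Of 12 central genes (paralog groups 4 to 8), 6 rose, 4 fell, and 2 did not pass, with a median of 0.23. Of 9 posterior genes (paralog groups 9 to 13), 6 rose, 1 fell, and 2 did not pass, with a median of 0.46, and HOXA13 among them also passed the filter through the ATRA libraries alone. Beside the 40.9% higher and 38.7% lower of all genes tested, the counts of central genes lie near the background. Across the 27 HOX genes tested, Spearman's rho between paralog number and log2FC was -0.31, which describes these genes only, since neighbours share libraries and regulatory DNA. The rho was -0.52 over 10 HOXA genes, -0.94 over 6 HOXB genes, 0.71 over 8 HOXC genes, and -0.50 over 3 HOXD genes. Without HOXA2 and HOXA13 it was -0.32 over 25 HOX genes and -0.60 over 8 HOXA genes. The sign was positive in the HOXC cluster alone, and this difference between clusters was not tested. The rho between control level and log2FC was -0.73 over the 34 tested members and -0.67 over the 31 that passed in both groups. Over all genes tested it was -0.30. The control counts enter both the level and the log2FC, which favours a negative rho, and the difference was not tested.

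**Figure D2:**
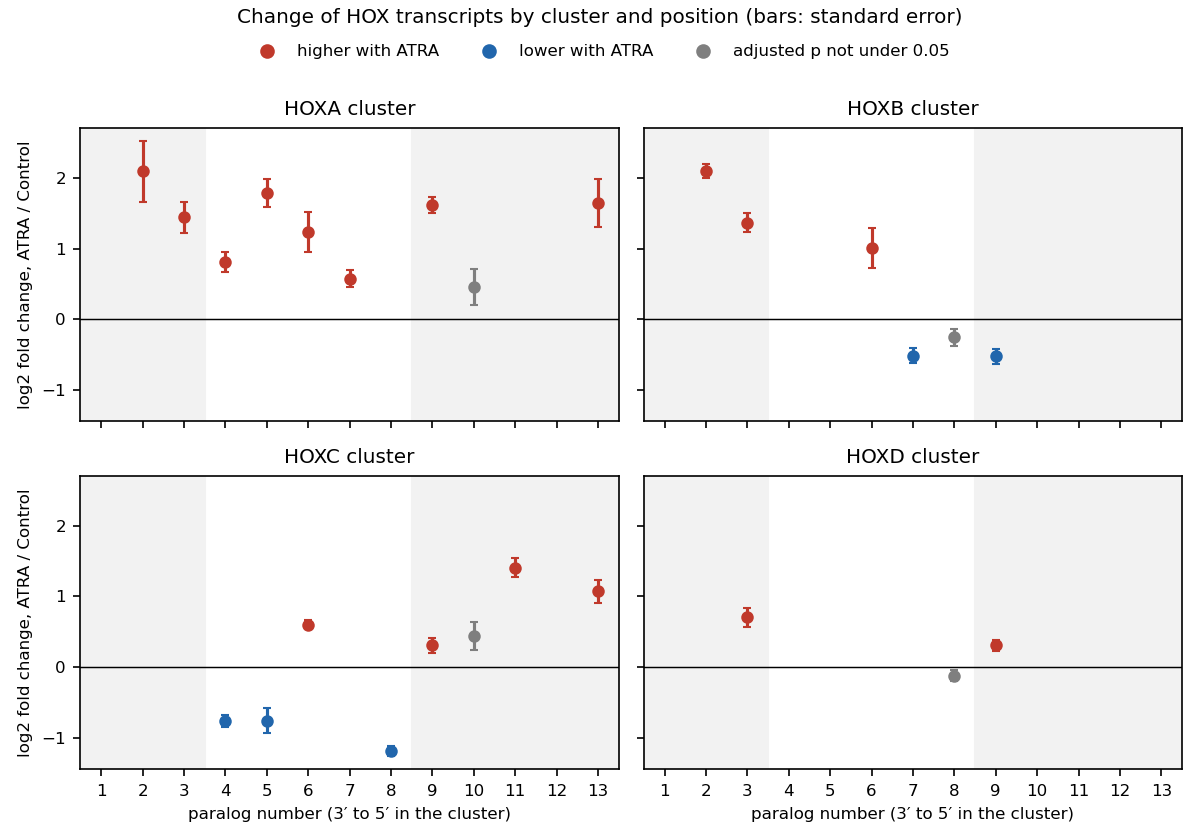
Each panel plots the log2 fold change of ATRA over control (y axis, bars show the standard error) of 26 tested HOX genes, by cluster, against their paralog number (x axis), with the anterior and posterior groups shaded. Values go from HOXB2 at 2.10 to HOXB9 at -0.52 along the HOXB cluster, whereas in the HOXC cluster HOXC4, HOXC5, and HOXC8 lie below 0 and HOXC11 and HOXC13 above 1.

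HOXB2, which acts in the hindbrain, had 12.2, 10.1 and 8.69 normalized CPM without ATRA and 43.4, 44.5 and 44.5 CPM with it. Its ATRA libraries lay close together and far above the controls, a 4.27-fold rise (log2FC 2.10, standard error 0.0982, adjusted p = 5.35e-13). HOXA2, which patterns cranial neural crest, rested on 4, 6 and 4 counts without ATRA and on 29, 32 and 21 counts after treatment. It had a log2FC of 2.09 (standard error 0.425), and it was tested only because of its ATRA level.

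The group 3 genes rose in each of the 3 clusters in which they were tested. HOXA3, needed for the thymus and parathyroid, had 1.87, 1.02 and 1.40 CPM in the controls and 4.54, 3.54 and 3.58 with ATRA (log2FC 1.44, standard error 0.214, adjusted p = 6.4e-06). For HOXB3 the control libraries held 4.38, 3.34 and 4.64 CPM and the ATRA libraries 10.6, 10.1 and 11.2 (log2FC 1.37, standard error 0.131, adjusted p = 2.18e-08). HOXD3 had 6.31, 4.73 and 4.79 CPM without and 9.30, 8.12 and 8.34 CPM with ATRA (log2FC 0.70, standard error 0.133, adjusted p = 9.89e-05). None of these groups overlapped, as for 80.1% of all genes tested, and 40.9% of all genes tested rose. HOXD3 had the smallest log2FC of the group 3 genes.

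Among the central genes, those of the HOXA cluster rose and most of the HOXC cluster fell. HOXA4 was at 3.38, 3.12 and 3.33 CPM in control and 5.83, 5.17 and 6.21 CPM in ATRA libraries (log2FC 0.81, standard error 0.142, adjusted p = 4.69e-05). HOXC4, its paralog, moved the other way, from 39.7, 34.1 and 38.7 CPM to 23.7, 20.5 and 22.2 CPM (log2FC -0.76, standard error 0.0824, adjusted p = 1.12e-07), and its log2FC was -0.28 with library size only, still past the threshold. The count of HOXA4 divided by that of HOXC4 in the same library, a ratio that no scaling can alter, was 0.0852, 0.0916 and 0.0861 in the control group and 0.246, 0.252 and 0.280 with ATRA. The ratio was 2.96-fold higher with ATRA, and no library overlapped. An exact permutation test of such a ratio cannot go below p = 0.1 with 3 libraries against 3. It gave 0.1 (two-sided) for each of the 11 ratios computed. The pairs of genes were chosen after their values were seen, which favours this outcome, so it adds nothing to the calls.

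Group 5 showed the widest gap between paralogs. HOXA5, which acts in the lung and the cervical to thoracic skeleton, had 1.68, 1.14 and 2.12 CPM in the controls and 5.37, 4.92 and 6.77 with ATRA (log2FC 1.79, standard error 0.203, adjusted p = 2.11e-07). HOXC5 had 4.67, 4.51 and 4.89 CPM in the controls and 3.17, 3.11 and 2.01 with ATRA, which was lower in every ATRA library (log2FC -0.76, standard error 0.177, adjusted p = 0.000719). Their log2FC differed by 2.55. With library size only, HOXC5 did not pass (adjusted p = 0.155), and its log2FC was -0.28.

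Group 6 rose in each cluster tested, beside 40.9% of all genes tested that rose and 80.1% whose groups did not overlap. HOXC6 had 105, 89.6 and 102 CPM in the control libraries and 152, 146 and 151 CPM in the ATRA libraries, with no overlap (log2FC 0.60, standard error 0.0637, adjusted p = 9.3e-08). HOXA6 rose from 0.515, 0.464 and 0.529 CPM to 1.25, 1.11 and 1.21 CPM (log2FC 1.24, standard error 0.282, adjusted p = 0.000622). HOXB6 rose from 0.548, 1.11 and 0.654 CPM to 1.71, 1.45 and 1.52 CPM (log2FC 1.01, standard error 0.279, adjusted p = 0.00302), on 17 to 36 counts per control library. HOXA6 and HOXB6 were thus low in both groups, and their standard errors were several times that of HOXC6.

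Groups 7 and 8 held genes that fell or did not pass. HOXA7 was the exception and rose from 5.77, 5.50 and 5.63 CPM to 8.79, 7.53 and 8.87 CPM (log2FC 0.57, standard error 0.119, adjusted p = 0.000253). HOXB7 fell from 13.3, 11.4 and 10.9 CPM in the controls to 7.70, 8.66 and 8.60 CPM with ATRA (log2FC -0.51, standard error 0.109, adjusted p = 0.000325). HOXC8, which specifies thoracic skeleton and motor neurons, had 78.1, 76.9 and 80.8 CPM in the control group and 32.6, 36.5 and 34.4 CPM in the ATRA-treated group. This was the largest fall of a HOX gene here, 2.28-fold (log2FC -1.19, standard error 0.0660, adjusted p = 7.17e-12), and the log2FC was below 0 under each of the scalings tried, up to -0.71 with library size only. HOXB8 had 8.25, 8.07 and 8.22 CPM and 7.43, 7.28 and 5.85 CPM, which missed the threshold (log2FC -0.25, standard error 0.121, adjusted p = 0.0616). Its log2FC was 0.23 with library size only, and it passed as lower with RLE scaling (adjusted p = 0.0451), without ATRA replicate 1 (adjusted p = 0.0419), or without ATRA replicate 2 (adjusted p = 0.0357). Without ATRA replicate 3 its log2FC was -0.16. HOXD8 had 26.3, 26.8 and 26.4 CPM and 25.03, 25.2 and 22.9 CPM (log2FC -0.12, standard error 0.0754, adjusted p = 0.154), with a 95% interval of the log2FC from -0.28 to 0.04. Its log2FC was 0.36 with library size only, past the threshold as higher.

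The posterior genes of the HOXA and HOXC clusters rose or were higher without passing, and HOXB9 fell. HOXA9, known for its part in blood stem cells, rose from 4.93, 4.54 and 4.98 CPM to 16.4, 14.6 and 13.4 CPM, or 3.07-fold (log2FC 1.62, standard error 0.114, adjusted p = 2.48e-10). HOXB9, its paralog, fell from 12.4, 10.8 and 12.6 CPM to 8.42, 7.82 and 8.77 CPM (log2FC -0.52, standard error 0.106, adjusted p = 0.000209). HOXA9 counts divided by HOXB9 counts gave 0.396, 0.421 and 0.394 in the controls and 1.94, 1.86 and 1.53 with ATRA, so HOXA9 had fewer reads than HOXB9 in each control library and more in each ATRA library. HOXC9 rose from 11.7, 9.58 and 10.9 CPM to 14.6, 12.3 and 12.9 CPM (log2FC 0.31, standard error 0.105, adjusted p = 0.0122), and this call was lost without Control replicate 2 (adjusted p = 0.0787) or ATRA replicate 1 (adjusted p = 0.0792). HOXD9 rose from 25.5, 23.0 and 23.6 CPM to 30.1, 28.9 and 30.2 CPM (log2FC 0.31, standard error 0.0750, adjusted p = 0.00117). All 4 group 9 genes thus passed the threshold, and HOXB9 alone among them was lower. Of all genes tested, 40.9% rose and 38.7% fell by the same rule.

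HOXB7 and HOXB9 did not pass with library size only, where their log2FC was -0.03 and -0.04. The rises of HOXC9 and HOXD9 were larger in that setting, with a log2FC of 0.79 and 0.78. In RefSeq's annotation of the goat assembly ARS1.2 the HOXB8 and HOXB9 genes overlap. How reads in the overlap were counted is not given in the sources used here, so the values of this pair are less certain.

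HOXC13, which drives hair shaft keratin genes, had 2.51, 1.98 and 2.58 CPM in the control libraries and 4.83, 4.81 and 5.22 CPM in the ATRA libraries. The libraries did not overlap, and the gene rose 2.10-fold (log2FC 1.07, standard error 0.160, adjusted p = 7.3e-06). HOXC11, which lies on the same side of the cluster, rose from 2.96, 3.56 and 3.24 CPM to 9.51, 7.82 and 8.53 CPM (log2FC 1.40, standard error 0.135, adjusted p = 2.3e-08). HOXC10 lay at 2.09, 1.61 and 2.02 CPM and 3.03, 2.45 and 2.27 CPM, apart in all libraries but just short of the threshold (log2FC 0.44, standard error 0.200, adjusted p = 0.0527). It passed as higher without ATRA replicate 3 (adjusted p = 0.0436), with upper-quartile scaling (0.0252), with a filter at 1 CPM (0.045), and with library size only (0.000448). HOXA10, which acts in the uterus and the lumbar axis, had 0.805, 0.835 and 0.872 CPM and 1.13, 1.16 and 1.16 CPM (log2FC 0.46, standard error 0.254, adjusted p = 0.108), with a 95% interval from -0.08 to 0.99. It passed as higher with library size only (log2FC 0.93, adjusted p = 0.0023) and with R's t.test function (adjusted p = 0.00548). HOXA13, which patterns the distal limb, had 11, 8 and 17 counts in the controls and 48, 64 and 41 with ATRA (log2FC 1.65, standard error 0.336, adjusted p = 0.000213), and it too was tested only through its ATRA level.

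The remaining HOX genes listed were barely detected. HOXA11 had 0 counts in each control library and 2, 3 and 3 counts with ATRA, at or under the floor of 3 counts per library that a count of 0 allows, so no fold is given. HOXD13, which patterns the digits, had 2, 2 and 2 counts in the controls and 11, 7 and 16 with ATRA. It did not pass the filter, as too few of its libraries reached the level that the filter asks for. Every ATRA library was above every control library for both genes. HOXB5, HOXD1, HOXD10, and HOXD11 had 4 counts or fewer in every library. These 6 genes were not tested. When edgeR's test was run with no filter, HOXD13 (adjusted p = 0.0115) and HOXA11 (adjusted p = 0.0318) passed as higher and the other 4 did not pass, for which a difference was not detectable at this depth. HOXB1, HOXB13, HOXC12, and HOXD12, which ARS1.2 annotates, had no row in the table and were not analysed here.

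**Figure D3:**
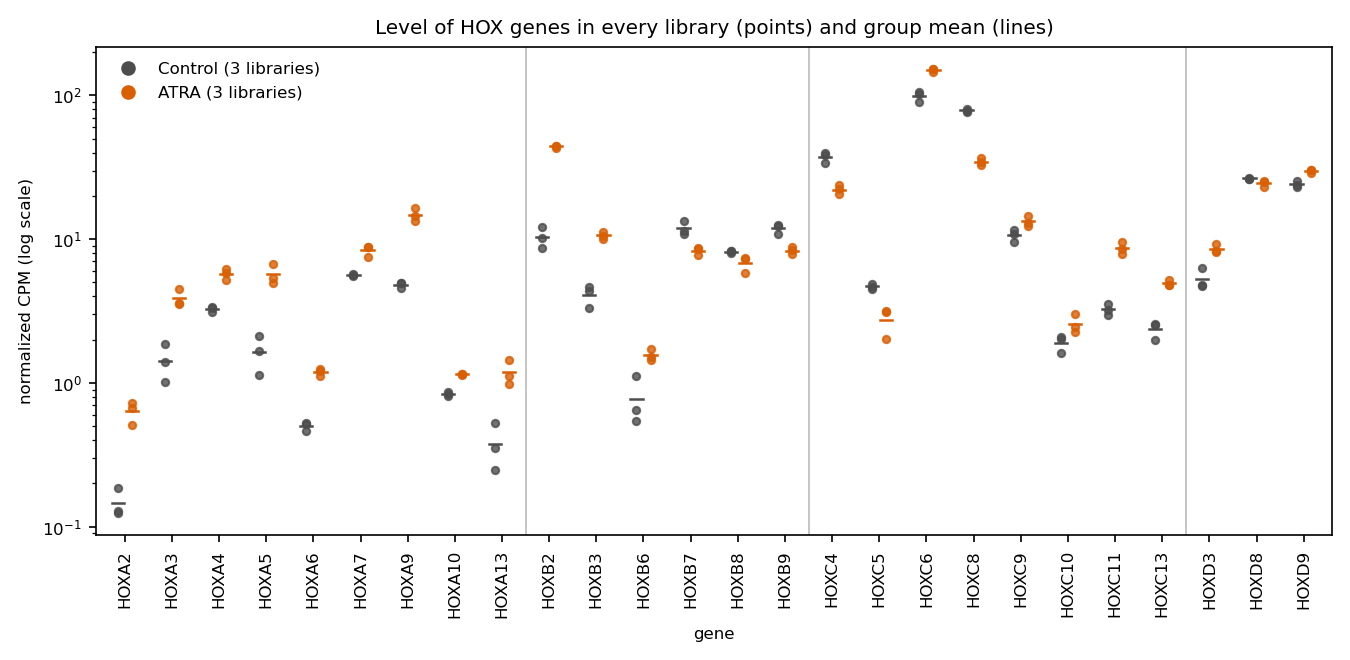
Normalized CPM on a log scale (y axis) is plotted for 26 of the tested HOX genes (x axis) in the 3 control and 3 ATRA libraries (points), with group means as lines. HOXA2 and HOXB2 show the widest gaps upward, and HOXC8 moves down from about 78.6 to 34.5 CPM. The groups of each gene stay apart, as do those of 80.1% of all genes tested.

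The HOX reads of a library were also summed by cluster, which needs no scaling between libraries. A gene's reads scale with the length of its transcript as well as its level, so shares are compared between groups only. HOXA genes held 5.55% ± 0.244 of the HOX reads in control libraries and 11.4% ± 0.255 in ATRA libraries (SD, n = 3 each). HOXB genes held 13.1% ± 0.551 and 18.6% ± 0.419 (SD, n = 3 each). HOXC genes held 65.9% ± 0.781 and 55.4% ± 0.178, the only cluster whose share was lower with ATRA by more than 1 percentage point. HOXD genes held 15.5% ± 0.585 and 14.6% ± 0.233. By position, the anterior genes held 6.28% ± 0.602 of the HOX reads in the controls and 17.3% ± 0.262 with ATRA. The central genes held 77.0% ± 0.679 and 63.0% ± 0.313, and the posterior genes 16.7% ± 0.121 and 19.7% ± 0.574. HOXB2 alone went from 2.86% ± 0.447 to 10.2% ± 0.325, and HOXC8 from 21.8% ± 0.993 to 8.02% ± 0.597.

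**Figure D4:**
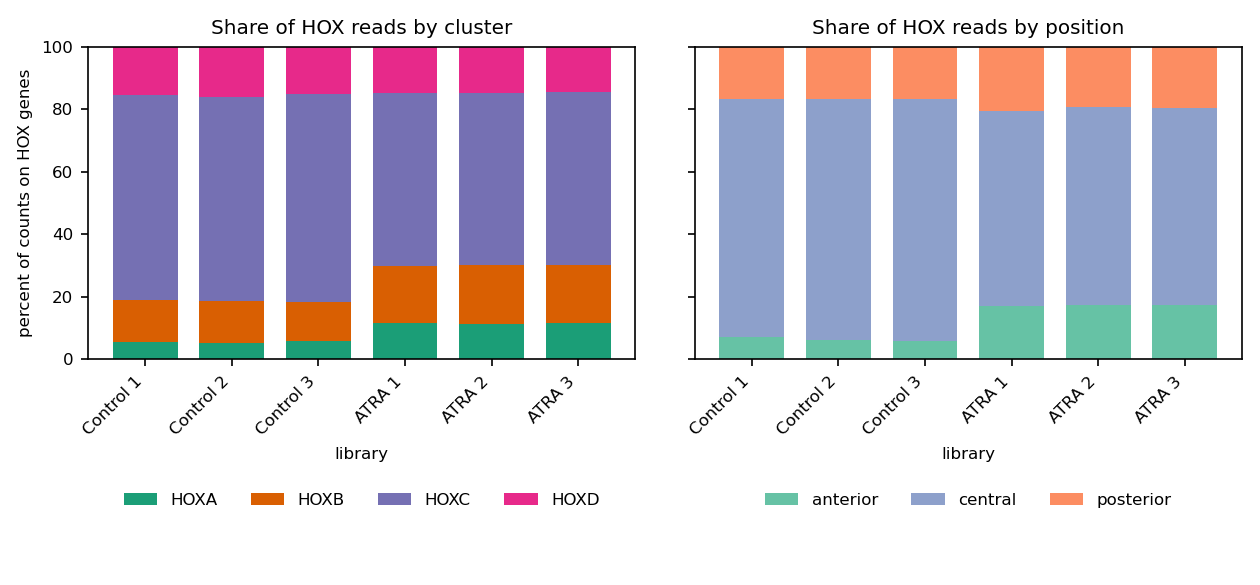
Stacked bars give the percent of all counts on HOX genes in each library by cluster (left) and by position (right), from 0 to 100. In the 3 ATRA libraries the HOXA and HOXB shares are larger and the HOXC share is smaller, and the anterior share lies between 16.99% and 17.49% against 5.84% to 6.96% in the controls.

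With TMM scaling, the summed level of the HOXC cluster was nearly the same in both groups, at 238 ± 14.04 and 239 ± 5.05 CPM (SD, n = 3 each). With library size only, a check of the sums added after the data were seen, it was 1.40-fold higher with ATRA. The 8 genes of the cluster moved in opposite directions, as 4 rose and 3 fell past the threshold with TMM scaling. Of all genes tested, 40.9% rose and 38.7% fell. HOXC8 counts divided by HOXC6 counts gave 0.742, 0.859 and 0.790 in the control libraries and 0.215, 0.250 and 0.227 in the ATRA libraries, 3.46-fold lower with ATRA. HOXC4 divided by HOXC6 gave 0.377, 0.380 and 0.379 and 0.156, 0.140 and 0.146. In the annotation HOXC6 and HOXC8 are neighbours, as are HOXC5 and HOXC6, so the direction changed between adjacent genes more than once along this cluster. In the HOXB cluster, HOXB2 divided by HOXB9 gave 0.979, 0.940 and 0.687 in the controls and 5.15, 5.69 and 5.07 with ATRA. The summed HOXB level was 47.3 ± 3.38 CPM in the controls and 79.9 ± 0.618 CPM with ATRA, while the HOXB genes other than HOXB2 summed to 37.0 ± 2.14 and 35.7 ± 0.369 CPM (SD, n = 3 each). The summed HOXA level was 20.1 ± 1.75 and 49.3 ± 1.98 CPM, and the summed HOXD level 55.9 ± 1.97 and 63.0 ± 1.47 CPM (SD, n = 3 each). With library size only, the sums were 3.42-fold (HOXA), 2.35-fold (HOXB), 1.35-fold (HOXB without HOXB2), and 1.57-fold (HOXD) higher with ATRA.

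Within a paralog group the members of different clusters had like fold changes in some groups and parted in others. HOXA2 and HOXB2 had a log2FC of 2.09 and 2.10, and HOXA10 and HOXC10 had 0.46 and 0.44. The HOXA2 value rested on 4, 6 and 4 control counts, with a standard error of 0.425, and was tested through the ATRA libraries alone. Neither HOXA10 nor HOXC10 passed the threshold, with standard errors of 0.254 and 0.2. How alike the fold changes are within these pairs is thus uncertain and was not tested. The span was 0.58 in group 13, where both genes rose, 0.74 in group 3, 0.64 in group 6, 1.57 in group 4, 1.09 in group 7, 1.07 in group 8, 2.14 in group 9, and 2.55 in group 5. In group 13, HOXA13 passed the filter through the ATRA libraries alone, a choice that favours a rise. Every group whose members moved in opposite directions past the threshold with TMM scaling (4, 5, 7, and 9) had its HOXA gene higher with ATRA. No tested HOXA gene was called lower, so this adds nothing to the calls themselves. With library size only, HOXC5, HOXB7, and HOXB9 did not pass, so of these groups only group 4 kept opposite calls. In that setting group 8 also had opposite calls, with HOXC8 lower and HOXD8 higher.

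Among the partner genes, MEIS1 showed the largest fall of all members. MEIS1 encodes a TALE cofactor that stabilises HOX and PBX complexes on DNA. Its level was 52.9, 49.5 and 52.4 CPM in the control libraries and 10.5, 9.52 and 9.18 CPM in the ATRA libraries. The ATRA libraries lay far below the controls, a 5.30-fold decrease (log2FC -2.41, standard error 0.0803, adjusted p = 3.04e-15), and its log2FC stood at percentile 6.57 of all genes tested. The log2FC of MEIS1 lay between -2.47 and -2.38 when each library was left out in turn.

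MEIS2, a close paralog that retinoic acid induces in the embryonic limb, had 27.4, 26.4 and 23.6 CPM in the controls and 29.1, 33.2 and 28.6 CPM with ATRA. This small rise passed the threshold (log2FC 0.23, standard error 0.0837, adjusted p = 0.0173), but not without Control replicate 3 (log2FC 0.16, adjusted p = 0.117) or without ATRA replicate 2 (log2FC 0.15, adjusted p = 0.0817). With library size only the log2FC of MEIS2 was larger, at 0.71, and passed. MEIS3 fell from 41.5, 34.3 and 39.4 CPM to 30.4, 30.0 and 28.4 CPM (log2FC -0.38, standard error 0.0791, adjusted p = 0.000294), and with library size only its log2FC was 0.10 and did not pass. The balance of the family does not depend on scaling. MEIS1 counts divided by MEIS2 counts gave 1.93, 1.87 and 2.22 in the control group and 0.360, 0.287 and 0.321 in the ATRA-treated group, a 6.23-fold change. MEIS1 thus went from more reads than MEIS2 in each control library to fewer in each ATRA library. MEIS1 held 44.6% ± 1.03 of the MEIS reads in the controls and 13.98% ± 0.953 with ATRA, and MEIS2 held 22.3% ± 1.75 and 43.5% ± 2.02 (SD, n = 3 each). The summed MEIS level was 116 ± 5.74 CPM in the controls and 69.7 ± 3.29 CPM with ATRA, and with library size only 98.1 ± 4.29 and 82.3 ± 4.98 CPM (SD, n = 3 each).

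PBX proteins are the TALE partners that pair most directly with HOX proteins. PBX2 had 65.0, 58.4 and 62.0 CPM in the control libraries and 64.2, 60.0 and 64.2 CPM in the ATRA libraries, the only tested member whose groups overlapped. Its log2FC was 0.02 (adjusted p = 0.742), with a 95% interval from -0.11 to 0.16, and with library size only it passed as higher (log2FC 0.50). PBX3 fell from 17.2, 17.4 and 18.0 CPM to 14.4, 15.7 and 12.5 CPM (log2FC -0.30, standard error 0.0953, adjusted p = 0.00749), and with library size only its log2FC was 0.18 and did not pass.

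PBX4, a PBX gene best known from the testis, had the largest rise of the tested members. It rested on 6, 7 and 10 counts without ATRA and on 170, 172 and 121 counts with ATRA, or 0.240 ± 0.0625 and 3.59 ± 0.573 CPM (SD, n = 3 each). Its log2FC of 3.88 (standard error 0.283, adjusted p = 4.09e-10) stood at percentile 98.4 of all genes tested, and it too passed the filter through the ATRA libraries alone. PBX4 still held only 1.15% ± 0.202 of the PBX reads with ATRA, against 0.0879% ± 0.0224 in the controls.

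**Figure D5:**
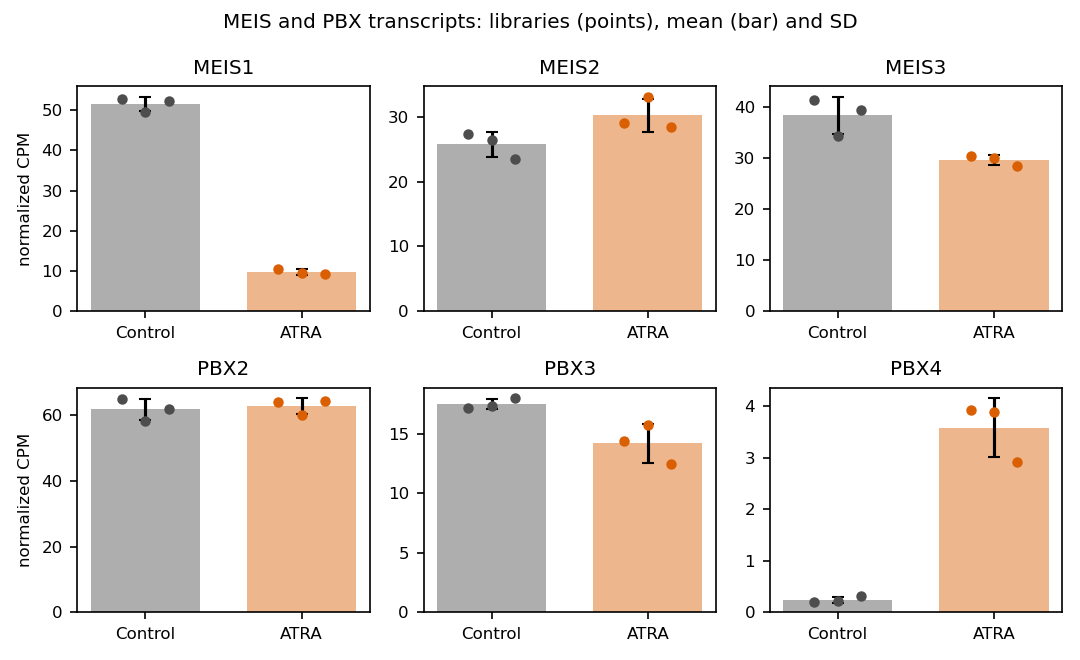
Each of 6 panels gives a MEIS or PBX gene in normalized CPM on its own linear y axis from 0, with the 3 control and 3 ATRA libraries as points, the mean as a bar, and the SD as error bar (n = 3). MEIS1 drops from 51.6 to 9.73 CPM and PBX4 rises from 0.240 to 3.59 CPM, while the means of the other 4 genes differ by at most 1.30-fold.

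Other TALE genes were listed as relatives of MEIS and PBX. Of 8 tested, 3 rose, 4 fell, and 1 did not pass, with a median log2FC of -0.07. With library size only, 4 were higher and 2 lower, with a median of 0.41. Of all genes tested, 40.9% rose and 38.7% fell, or 62.9% and 22.7% with library size only. Whether this list differs from other genes was not tested. TGIF1, a corepressor of Smad and retinoid signaling, rose with a log2FC of 0.75 (adjusted p = 5.78e-09). PKNOX1, another PBX partner, fell with -0.47 (adjusted p = 5.92e-05), a direction that turned with library size only (log2FC 0.01), and the tendon regulator MKX fell with -0.84 (adjusted p = 1.02e-06). IRX3, an Iroquois gene, fell most, with -1.26 (adjusted p = 2.46e-12), and IRX2 rose with 0.62 (adjusted p = 1.44e-05). Of 8 related homeobox genes (EVX, CDX, GBX, and MNX1), 5 had a row and GBX2 was the only one tested, with 0, 0 and 1 counts in the controls and 10, 14 and 13 with ATRA.

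Chromatin regulators that hold HOX clusters silent or active were also examined. Of 17 Polycomb genes, all tested, 11 rose, 5 fell, and 1 did not pass, with a median log2FC of 0.34. With library size only, 15 were higher and 2 lower (CBX2 and EZH2). Of all genes tested, 40.9% rose and 38.7% fell, or 62.9% and 22.7% with library size only. CBX7 and CBX6, which encode readers of the Polycomb mark, rose with a log2FC of 1.96 (adjusted p = 2.91e-14) and 1.72 (adjusted p = 9.83e-14), and JARID2, a subunit that recruits the complex, with 1.13 (adjusted p = 5.57e-08). The methyltransferase genes parted, as EZH2 fell with -0.71 (adjusted p = 1.62e-08) and EZH1 rose with 0.88 (adjusted p = 6.66e-10). CBX2 fell with -1.10 (adjusted p = 6.71e-05). Of 12 trithorax and opposing genes, 7 rose, 2 fell, and 3 did not pass, with a median of 0.36. Beside them stand the 40.9% higher and 38.7% lower of all genes tested. With library size only all 12 were higher, a setting in which 62.9% of all genes tested were higher and their median was 0.52. KDM6B and KDM6A, demethylases that remove the Polycomb mark, rose with 1.18 (adjusted p = 4.42e-11) and 0.98 (adjusted p = 1.93e-09). KMT2A, the methyltransferase that keeps HOX genes active, rose with 0.51 (adjusted p = 9.21e-06), and its partner MEN1 with 0.84 (adjusted p = 1.99e-09). ASH2L fell with -0.30 (adjusted p = 0.000746), and with library size only it was higher, at 0.18. The TMM-scaled medians stood beside 0.04 for all genes tested, and whether either list differs from other genes was not tested.

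The cell type was checked against its markers. Of 12 dermal papilla and mesenchyme markers, 8 were tested and all 8 fell, from -0.44 for PDGFRB to -9.62 for ACTA2, whose reads may be divided with those of near-identical actin genes. With library size only, 6 of the 8 fell, and PDGFRB stood at 0.04. Their summed level ranged from 30590 to 33230 CPM in the controls and from 2222 to 2261 CPM with ATRA. VIM, PDGFRA, LUM, and DCN, genes of mesenchymal cells, were abundant in the controls, at 19160 ± 876, 865 ± 12.2, 1865 ± 45.6, and 1392 ± 74.3 CPM (SD, n = 3 each). The papilla markers ALPL, PROM1, and CORIN had at most 1 count in any library and were not tested. SOX2, also not tested, was low but higher in every ATRA library, with 5, 0 and 2 counts in the controls and 10, 16 and 9 with ATRA. The study's methods stained these cells for 2 proteins, α-SMA and CD133, which ACTA2 and PROM1 encode. ACTA2 had 6582 ± 462 CPM in the controls (SD, n = 3). RNA counts and protein staining are unlike measures, and how they relate here was not tested. Markers of other cells were low beside VIM, PDGFRA, LUM, and DCN in the controls, but not beside many of the members. With ATRA, MITF had a mean of 32.7 CPM, CD68 11.0 CPM, and PECAM1 6.1 CPM, and the other markers of these lists had less. Of 7 keratinocyte markers, KRT10 alone was tested and rose, and the list summed to between 3.11 and 4.98 CPM in the controls and between 5.37 and 5.97 CPM with ATRA, with KRT1 not listed. The basal markers KRT14 and KRT5 were lower in every ATRA library but not tested, with 20, 14 and 10 counts and 2, 7 and 3 counts in the controls and 3, 0 and 0 and 0, 0 and 0 with ATRA. Of 4 endothelial markers, PECAM1 rose from 0 counts to between 206 and 340 counts per library, tested through the ATRA libraries alone, and VWF had a log2FC of 0.06 (adjusted p = 0.909). KDR, not tested, had 5, 6 and 10 counts in the controls and 2, 1 and 0 with ATRA, and CDH5 had 1 count in all. The endothelial sums ranged from 0.322 to 0.556 CPM and from 5.24 to 8.03 CPM. Of 4 leukocyte markers, CD68 alone was tested and rose, with sums from 2.60 to 5.702 CPM and from 10.6 to 11.8 CPM, and PTPRC and LYZ were not listed. Of 5 melanocyte markers, MITF rose and PMEL fell, with sums from 16.1 to 17.6 CPM and from 32.2 to 39.0 CPM, and TYR, DCT, and SOX10 were not listed. These levels moved together with the HOX, MEIS, and PBX changes between the same libraries, and their part in those changes was not tested.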

How the data were processed

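Poly(A) RNA of 3 control and 3 ATRA cultures was sequenced. The authors cleaned reads with fastp and TrimGalore, and the submitters' processing notes name HISAT2 and featureCounts without versions. The genome build, annotation, and strand setting are not given in the sources used here. The authors deposited whole-number read counts per gene, not normalized, and every library column was used.

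The low-count filter of edgeR (filterByExpr) kept 12588 of 15944 genes, which were scaled by TMM and tested on all 6 libraries by edgeR's quasi-likelihood test (robust), which replaced the R function t.test of the study's methods because the values are counts. The standard error is the absolute log2FC over the square root of F. The floor of 3 counts covers counting error only. All 40 members matched RefSeq symbols (ARS1.2), used for names and gene order. Members with a mean CPM of at least 1 in a group (33) have their values in every library given, and the other 7 are given as counts or ranges, except that the values of 2 tested members are not reported here, although counts, medians, and shares include them. The families described and the lists were chosen with earlier results of these data known, although the rule that finds the members uses symbols alone. HOXA2 was named with full statistics after its values were seen, as were the pairs of genes whose count ratios are given. The tests were tested on simulated data. R 4.3.3 ran edgeR 4.0.16 and DESeq2 1.42.0, and figures were drawn in Python 3.11.15 with matplotlib 3.10.9. As alternatives, the main choices were replaced in turn by DESeq2, by t.test on log2(CPM + 1), and by other scalings and filters, the replicate number as a block, stricter fold thresholds, and each library left out in turn.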

Additional observations from a re-analysis of the deposited data

How the results depend on the processing

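Over all alternatives, 447 of the tested members' log2FC values kept their direction and their side of the threshold, 14 no longer passed (2 of them also turned direction), 11 newly passed (1 also turned), and 3 turned direction without passing. With library size only, 3 members were lower in place of 8, and 1 in place of 2 was lower by the fold threshold. In the same setting the log2FC turned for HOXB8 to 0.23, for HOXD8 to 0.36, for MEIS3 to 0.10, and for PBX3 to 0.18, since that scaling raises the log2FC of all genes together. Rises grew in that setting too, with a log2FC of 1.28 for HOXA4, 1.05 for HOXA7, 1.08 for HOXC6, and 1.18 for HOXD3. The t.test function applied to log2(CPM + 1) gave 8 members higher by the fold threshold in place of 13. There HOXB6 (log2FC 0.54, adjusted p = 0.0657), HOXC5 (-0.61, 0.0737), HOXC9 (0.29, 0.0682), MEIS2 (0.22, 0.093), and PBX3 (-0.29, 0.102) lost their calls, and the cause was not tested. With an absolute log2FC above 2, 4 members were higher and 1 was lower (MEIS1). PBX2 ranged from -0.0219 to 0.0546 on leaving out each library, with values below 0 without Control replicate 2 and without ATRA replicate 3 (-7e-04). HOXC9 and MEIS2 also lost their calls without the libraries named above. With the replicate number as a block, 21 members were higher and 8 lower, as without it. Deviations of same-numbered control and ATRA libraries from their group means correlated at 0.19, -0.01, and -0.16, which gives no sign of pairing by number. Pairs of unlike number ranged from -0.24 to 0.25, and not every library correlated best with its own number. Which libraries share an animal is not known, so neither these values nor the block can exclude pairing in another order. The counts of members under DESeq2, RLE and upper-quartile scaling, both filters, and each library left out stayed within 1.5 times those reported. Depth limits HOXA11, HOXB5, HOXD1, HOXD10, HOXD11, and HOXD13, and HOXA2, HOXA6, HOXA13, HOXB6, and PBX4 have wide errors on few control counts.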
